A study of Drosophila melanogaster with 2 samples.

Results

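Clusters of neighbouring tramtrack-GFP binding summits were described in whole Drosophila melanogaster embryos 0 to 24 h old. The members were chosen by position from the authors' conservative peak list over both replicates, which holds 3815 peaks on the chromosome arms. Overlapping peaks were merged to 3632, keeping the summit of the peak with the highest signal. Merged peaks whose neighbouring summits lay at most 5 kb apart were chained, and chains with 3 or more summits within some 10 kb were kept. This selected 734 of the 3632 merged peaks (20.2%), in 201 clusters, and left 2898 outside. Any 3 neighbouring summits joined in this way fall within 10 kb, so the 5 kb distance alone decided the membership. The spacing and the signal of this list are therefore given as a description, with no test.

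The libraries came from embryos of the ttk-GFP strain, in which an inserted transgene expresses tramtrack fused to eGFP. An anti-GFP antibody was used for the precipitation according to the sample descriptions, while another label gives the antibody as ttk. The group consisted of 2 libraries, called biological replicates 1 and 2, and neither a second condition nor a control library was analysed here. The labels do not say whether the embryos also carried intact ttk, and the sex of the embryos was not collected. Whole embryos over the whole of embryogenesis mix all cell types and stages, so summits of 1 cluster need not have been bound in the same cells. Read depth is unknown, because the files list peaks and give no counts.

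Tramtrack, a repressor of transcription with a BTB domain and zinc fingers, holds back neuronal fate and is known to act in tracheal, eye and follicle cell development. Its locus encodes isoforms that share the BTB domain and carry different zinc fingers. Regulatory DNA of fly developmental genes is often spread over several enhancers upstream and in introns, and several summits within a few kilobases can mark such stretches or a row of closely packed promoters.

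The bases under the strongest summits of 7 of the largest clusters are shown because they are the places where these clusters had most signal. Each window is 101 bases centred on the summit, from the plus strand of the NCBI sequence of the dm6 assembly. Capitals mark matches on either strand to any of 14 motifs searched, among them GAGAG, the core of GAGA factor sites, and the A tract AAAAAAA. Names are those of the gene at or nearest to the summit.
CHES-1-like at X:7706949-7707049: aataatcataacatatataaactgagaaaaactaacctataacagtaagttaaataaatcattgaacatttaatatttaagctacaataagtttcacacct
Raf at X:2297673-2297773: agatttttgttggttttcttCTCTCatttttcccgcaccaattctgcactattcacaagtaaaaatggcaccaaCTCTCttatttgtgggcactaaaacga
Tlk at X:3742173-3742273: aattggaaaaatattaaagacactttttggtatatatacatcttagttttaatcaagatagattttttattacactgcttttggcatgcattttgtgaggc
msn at 3L:2583094-2583194: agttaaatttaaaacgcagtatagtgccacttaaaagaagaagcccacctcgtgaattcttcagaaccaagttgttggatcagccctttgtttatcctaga
Sf3b6 at 3L:6193265-6193365: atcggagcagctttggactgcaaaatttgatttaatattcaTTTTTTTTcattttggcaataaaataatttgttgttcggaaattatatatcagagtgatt
lncRNA:Vinr at X:12751359-12751459: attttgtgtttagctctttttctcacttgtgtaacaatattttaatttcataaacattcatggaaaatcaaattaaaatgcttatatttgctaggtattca
LPCAT at X:9579241-9579341: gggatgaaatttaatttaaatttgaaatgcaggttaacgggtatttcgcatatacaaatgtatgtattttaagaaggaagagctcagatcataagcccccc

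Only 2 of these 7 windows held a match. The window in Raf held GAGAG at 2 places and the window at Sf3b6 an A tract, while no core of a reported tramtrack site lay in any of them. The GC content ran from 21.8% in CHES-1-like to 38.6% in msn.

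Most clusters were small. Of the 201 clusters, 122 had 3 summits, 51 had 4, 19 had 5 and 5 had 6, and the remaining clusters had 8, 8, 11 and 12. From first to last summit a cluster spanned a median of 5461 bp, with a range of 958 to 17998 bp, and all spans together covered 0.834% of the length of the arms. Neighbouring summits within clusters lay a median of 1893 bp apart (quartiles 983 and 3164 bp, n = 533 distances), against 13933.5 bp between neighbouring summits over all merged peaks. Of these distances, 138 (25.9%) were under 1000 bp and 16 under 500 bp. The labels give a size range of 200 to 800 for the sonicated chromatin, without a unit, so the shortest of these distances may be no longer than a fragment. At the edge of the rule, 20 clusters of 3 held together by a distance of 4500 to 5000 bp, and 33 chains of 2 summits had another summit 5001 to 5500 bp away.

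**Figure D1:**
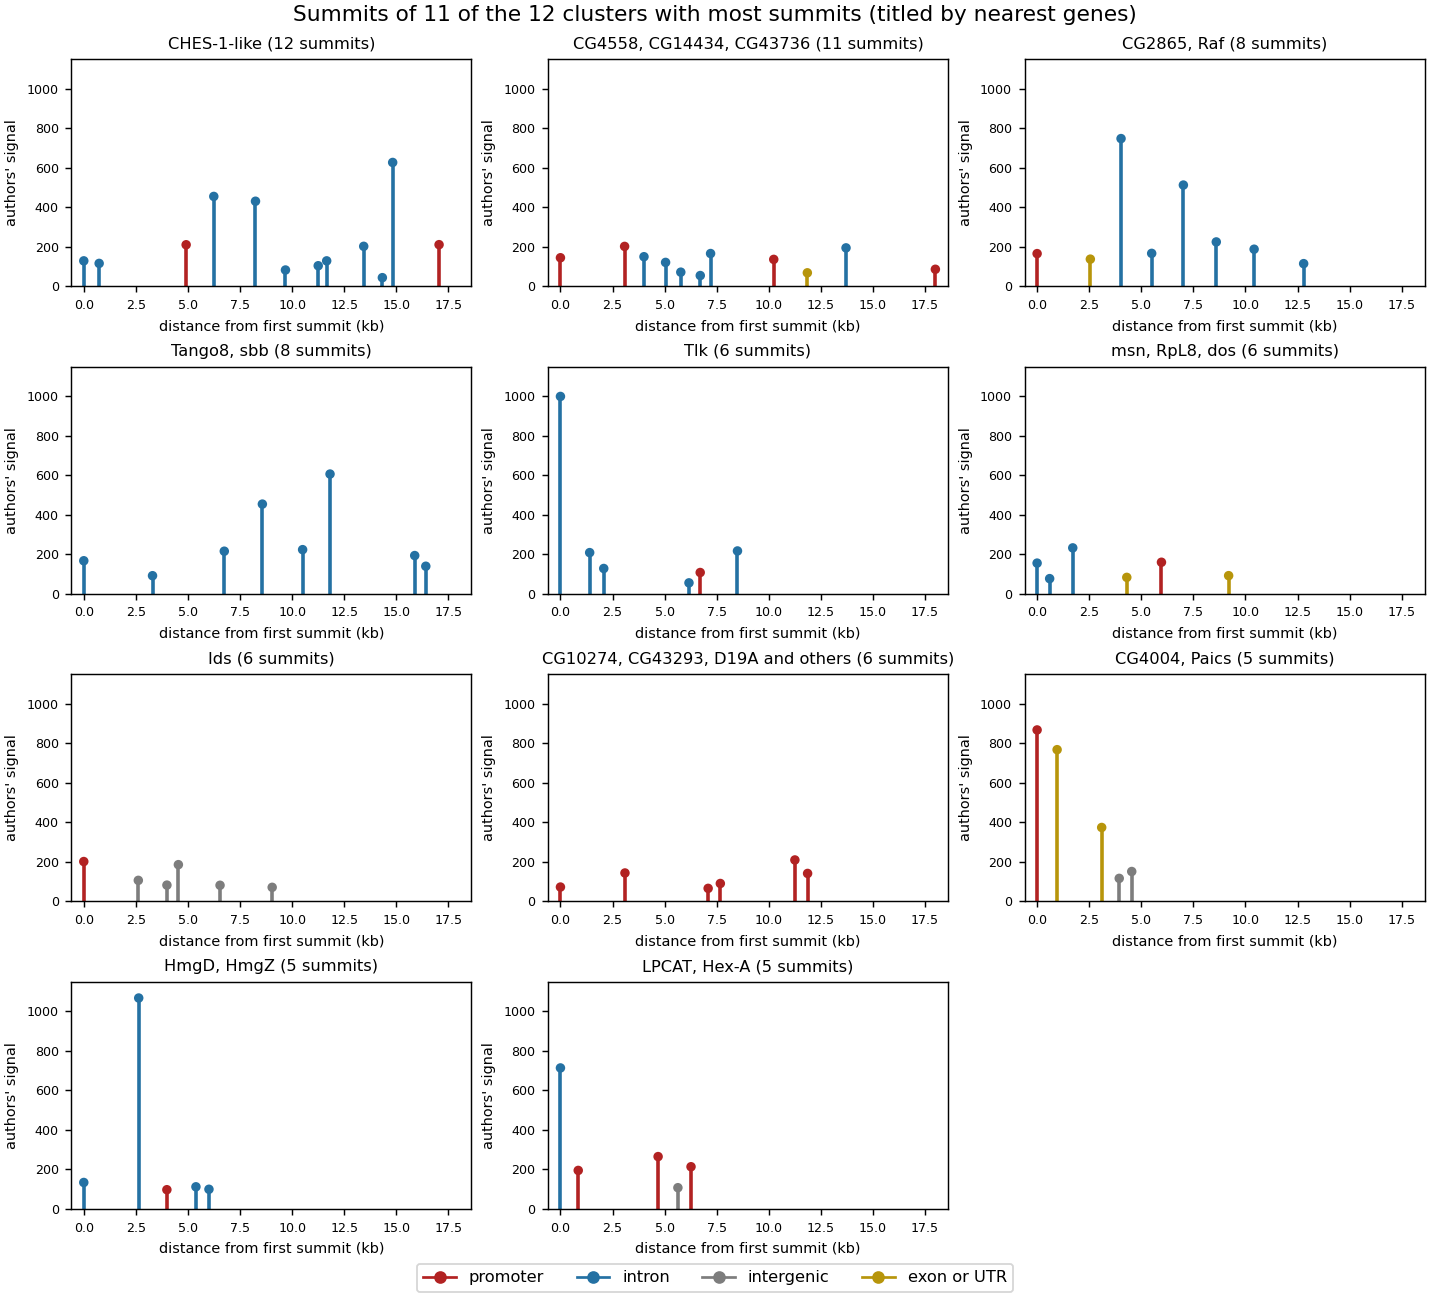
Signal of each summit (authors' value, linear axis) against its distance from the first summit of the cluster in kb, for 11 of the 12 clusters with most summits, coloured by annotation class and titled by the nearest genes. The panels share their axes, and the 12 summits at CHES-1-like cover 17055 bp while the 5 at CG4004 and Paics cover 4542 bp.

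The largest cluster filled most of 1 gene. CHES-1-like, which encodes a forkhead-domain transcription factor, held 12 summits between X:7692171 and X:7709226, of which 10 lay in introns and 2 at promoters. The signals, in order along the chromosome, were 128, 115, 210, 454, 430, 81.7, 103, 128, 202, 42.9, 626 and 210. Strong and weak summits alternated over the 17055 bp rather than falling away from a single point. The strongest, at X:7706999, had signals of 327 in replicate 1 and 325 in replicate 2, and the second, at X:7698412, had 243 and 207. In total 10 of the 12 stood in both replicates' own thresholded lists, and the summed signal of 2732 was the highest of all clusters.

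Raf, which encodes the MAP kinase kinase kinase of the Ras pathway, held 7 of the 8 summits of the cluster between X:2293694 and X:2306489. The strongest lay in an intron 2257 bp beyond the TSS. Its signal was 747 in the conservative list, with 388 in replicate 1 and 364 in replicate 2. A second intron summit, 5249 bp beyond the TSS, had 512, with 225 and 288 in the replicates. These 2 summits stood well above the others, which ran from 114 to 224. The first summit belonged to the promoter of the neighbouring gene CG2865 and had a signal of 165 (111 and 55.1 in replicates 1 and 2).

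Other large clusters lay in introns of long genes. All 8 summits of the cluster between 2R:18326675 and 2R:18343093 were in introns of sbb (scribbler), a nuclear protein gene, although Tango8 had the nearest TSS for 3 of them. The strongest of them had signals of 606 in the conservative list, 352 in replicate 1 and 257 in replicate 2, and 7 of the 8 had the higher replicate signal in replicate 1. Tlk, encoding the Tousled-like kinase, held 6 summits from X:3742223 to X:3750721. The first of these dominated, at 999 (replicate 1 gave 495 and replicate 2 gave 506), and the others ran from 55.1 to 217. One of the 6, at X:3744302, had no matching peak in replicate 2.

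A different layout was seen where promoters were packed together. The 6 summits of the cluster from 3L:6182061 to 3L:6193925 lay at the promoters of CG10274, CG43293, D19A, CG7386, Sf3b6 (a splicing factor subunit gene) and Tnpo (a nuclear import receptor gene). Their signals ran from 65.6 at D19A to 209 at Sf3b6, and the latter had 95.5 in replicate 1 and 103 in replicate 2. Their summed signal was 722, against 2732 at CHES-1-like. The 11 summits at CG4558, CG14434 and CG43736 (X:6849678 to X:6867676) lay in another layout, with 6 in introns, 4 at promoters and 1 in another exon, and had signals between 53.7 and 201. In that cluster the strongest summit held 14.5% of the summed signal, the lowest share of all clusters, 5 of the 11 stood in both thresholded lists, and the replicates differed in which summit was strongest.

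Long noncoding RNA genes carried another large cluster. In the cluster between CG4004 and Paics, a summit of 868 (502 and 419) lay at X:12751409 in lncRNA:Vinr, at the start of lncRNA:CR44619, which held summits of 768 (390 and 383) and 374 (207 and 163). The last summit of that cluster, at X:12755951, was the exception, with 35.4 in replicate 1 and 116 in replicate 2. The summit before it, at X:12755351, was the one member with over 50% of the 31-base words around it repeated elsewhere in the genome, at 55.0%.

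High summed signal also came from clusters of few but strong summits. At ph-p, a Polycomb group gene that maintains silencing, 4 summits within 3448 bp summed to 2466. The promoter summit at X:2137348 had the highest signal of all members, 1521, with 736 in replicate 1 and 788 in replicate 2. The summit 546 bp from it, at X:2137894, had 635, with 392 and 252 in the replicates, and the others had 145 and 166. At HmgD and HmgZ, neighbouring genes of HMG-box chromatin proteins, 1 of 5 summits had 1068 (586 and 485) and the others ran from 97.1 to 134. Rtnl1, the reticulon gene, had 3 promoter summits with signals of 960, 153 and 366, and Ptpmeg2, a phosphatase gene, had 3 promoter summits of 316, 477 and 419 and 2 weaker intron summits. The cluster at Alg3 and Sesn, the sestrin gene, was led by 838 at the Sesn promoter and 617 at the Alg3 promoter, and that at LPCAT and Hex-A, a hexokinase gene, by 714 in an LPCAT intron.

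The most closely spaced clusters were of another kind, with mean distances of 479 to 662 bp. Upstream of nrv1, a sodium pump subunit gene, 3 summits within 958 bp had signals of 174, 97.9 and 60.6. The replicates disagreed there, with 143 and 57.5 at the first summit but 44.7 and 101 at the second. A second cluster nearest to Ids, an iduronate sulfatase gene, held 4 intergenic summits within 1661 bp, with signals of 118 to 225. The cluster downstream of scyl (scylla), an inhibitor of TOR signalling, had 112, 119 and 359, and that in introns of Pli, the Pellino gene, had 205, 376 and 72.3. At elav, the gene of a neuronal RNA-binding protein, 4 summits lay within 1883 bp. All 4 lay inside the overlapping gene arg and 2 of them inside elav, and 2 of the 4 counted as promoter summits. The strongest of the 4 had 527 (324 and 199). A summit of 10.8 at X:522857, the lowest signal of all members, had no matching peak in either replicate.

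Promoters held a smaller share of the clustered summits than of the other merged peaks in this list, and introns a larger one. A summit counted as a promoter summit within 500 bp of any annotated TSS, of a coding or a noncoding gene. Promoters held 225 of the 734 members (30.7%), against 47.0% of the summits outside clusters and 43.7% of all merged peaks. Introns held 365 (49.7%), against 35.6% outside and 38.4% of all. Intergenic sequence held 119 (16.2%), against 14.7% outside. Of the remaining members 14 lay in other exons, 6 in 5' UTRs and 5 in 3' UTRs. No member lay in a coding exon, where 20 of the outside summits lay, or 0.690%. Members enter in groups of 3 or more, so no limit that takes them as independent is put on this count of 0. These shares come from 1 pooled list and were not tested over samples. The shares also differed with the number of summits in the chain. The promoter share was 48.4% in chains of 1, 44.2% in chains of 2, 31.4% in chains of 3, 32.8% in chains of 4 and 26.2% in chains of 5 or more. Over the same steps the intron share was 33.6%, 39.8%, 48.4%, 49.5% and 53.0%. With promoters counted within 1000 bp, members were at promoters in 43.2% and in introns in 40.9%. The shares outside clusters and of all merged peaks are not given for 1000 bp, so these values have no counterpart above.

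**Figure D2:**
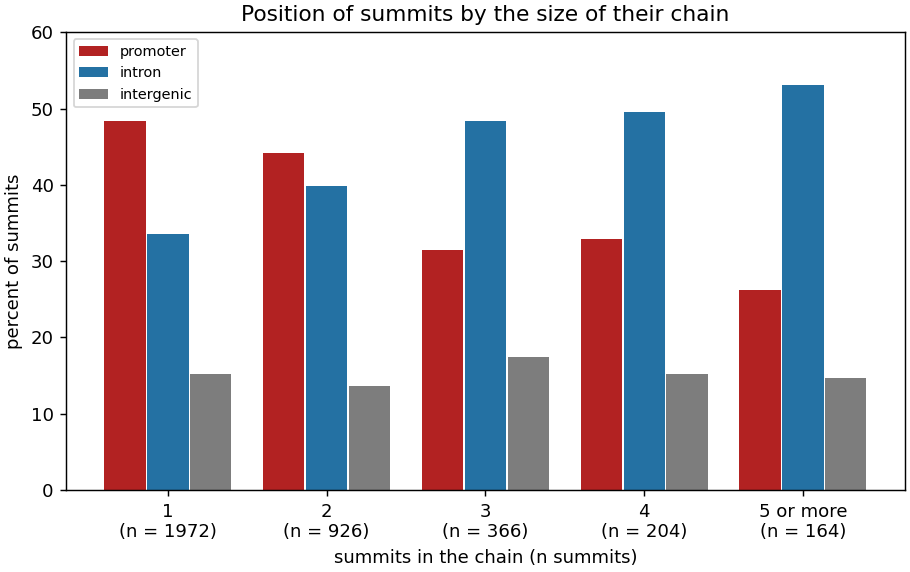
Percent of summits at promoters, in introns and between genes (bars, linear axis from 0) for merged peaks in chains of 1, 2, 3, 4 and 5 or more summits, with the number of summits under each group. The promoter share is 48.4% in chains of 1 and 26.2% in chains of 5 or more, and the intron share 33.6% and 53.0%.

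Many clusters lay wholly within a gene. Of the 201 clusters, 86 (42.8%) had every summit inside 1 protein-coding gene, with 316 members. Counted once per cluster, the longest gene that held all its summits had a median length of 36846.5 bp. In 53 of the 86 no summit was at a promoter. Among all clusters, 76 had no promoter summit, 64 had 1, 34 had 2, 18 had 3 and 9 had 4 or more. Only introns were used in 51 clusters, only intergenic sequence in 17 and only promoters in 16. Intron members in coding genes lay in the first of 3 equal parts of the gene in 169 of 357 cases (47.3%), in the middle part in 37.5% and in the last in 15.1%. Outside clusters these shares were 46.4%, 35.1% and 18.4%. Counted once per intron summit, the longest gene around it had a median length of 32545 bp for members and 32864.5 bp outside. A gene with several intron summits enters these medians several times. Promoter members of protein-coding genes lay upstream of the TSS in 156 of 198 cases (78.8%), at a median of -123 bp, against 83.5% and -111 bp outside.

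Several genes held more clustered summits than the rest. Clustered summits lay inside 199 protein-coding genes, of which 96 held 3 or more and 15 held 5 or more. CG1677 (X:7281089-7405797) held 12 summits in 3 clusters, although other genes had the nearest TSS for all 12. The gene ush held 8 in 2 clusters. Ush, u-shaped, is a cofactor of GATA transcription factors, and the larger of its clusters had 5 intron summits of 95.4 to 296. The strongest of these had 171 in replicate 1 and 127 in replicate 2. Members of 2 clusters also lay in shep, an RNA-binding protein gene, and in Hr4, a nuclear receptor gene.

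The signal of clustered summits was close to that of the others. The median was 137 (quartiles 97.1 and 213, range 10.8 to 1521) against 125 outside (quartiles 91.2 and 201) and 126 over all merged peaks, so the quartile ranges overlapped for most of their length. Within clusters the summits were unequal. The strongest summit held a median of 45.7% of the summed signal of its cluster, with a range of 14.5 to 81.7%, and exceeded the weakest by a median of 2.80 times. This ratio was over 2 in 141 clusters and over 5 in 41. Ordered by rank within the cluster, which orders the signals by construction, the median signals were 248, 153, 103 and, in the 79 clusters of 4 or more summits, 90.3. Promoters made up 33.8%, 32.3%, 28.4% and 30.4% of ranks 1 to 4. In the 109 clusters that mixed promoter and other summits, the strongest was a promoter summit in 52, where promoters made up 40.7% of the summits.

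**Figure D3:**
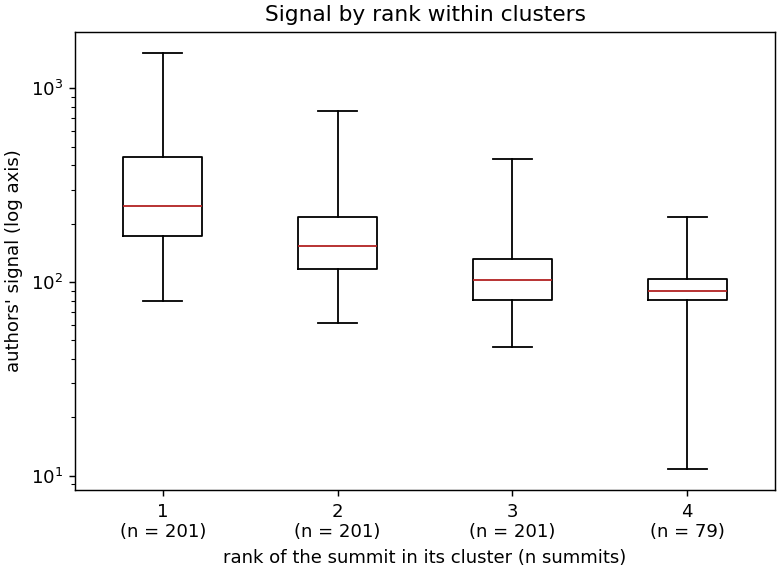
Signal of clustered summits (authors' value, log axis) by rank within the cluster, strongest first, with the number of clusters under each box. Boxes show quartiles with the median as a red line, and whiskers reach the lowest and highest value, which for rank 1 run from 79.7 to 1521.

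In the replicates' own lists the clusters were recovered in part. A peak with its summit within 150 bp stood in both replicates' thresholded lists for 450 of the 734 members (61.3%), against 56.8% of all merged peaks and 55.7% of those outside clusters. A further 86 members stood in the list of replicate 1 only, 91 in that of replicate 2 only and 107 in neither. By rank within the cluster, 92.0% of the strongest summits stood in both lists, then 74.1%, 40.3% and 26.6%. These ranks follow the signal by construction, and shares for summits of like signal outside clusters are not given. All summits of a cluster stood in both lists in 39 clusters, at least 3 did in 82 and none did in 11. When the rule was applied to each replicate's thresholded list alone, replicate 1 gave 164 clusters and replicate 2 gave 143. Of the 201 clusters, 88 overlapped a cluster of both replicates, 26 of replicate 1 only, 29 of replicate 2 only and 58 of neither.

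Where both replicates had a peak, their signals differed little on average. In the longer ranked lists, 723 of the 734 members had a matching peak in both replicates, and the median log2 ratio of replicate 1 to replicate 2 was 0.19 (SD 0.49 across members), against 0.14 (SD 0.49) outside clusters. The medians of the members were 73.4 in replicate 1 and 65.5 in replicate 2, on scales whose normalization no source used here gives. The widest ratio was at the promoter of dco, a casein kinase gene (3R:31061544), with 43.5 in replicate 1 and 157 in replicate 2, a log2 ratio of -1.85. The median ratio of a cluster ran from -0.58 to 0.90 (SD 0.30 across clusters), and no cluster lay beyond a 2-fold distance from the overall median. Of 190 clusters with every summit matched, 149 (78.4%) had the same strongest summit in both replicates. Where it was the same, the strongest exceeded the weakest by a median of 3.20 times, and where it was not, by 1.67 times.

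**Figure D4:**
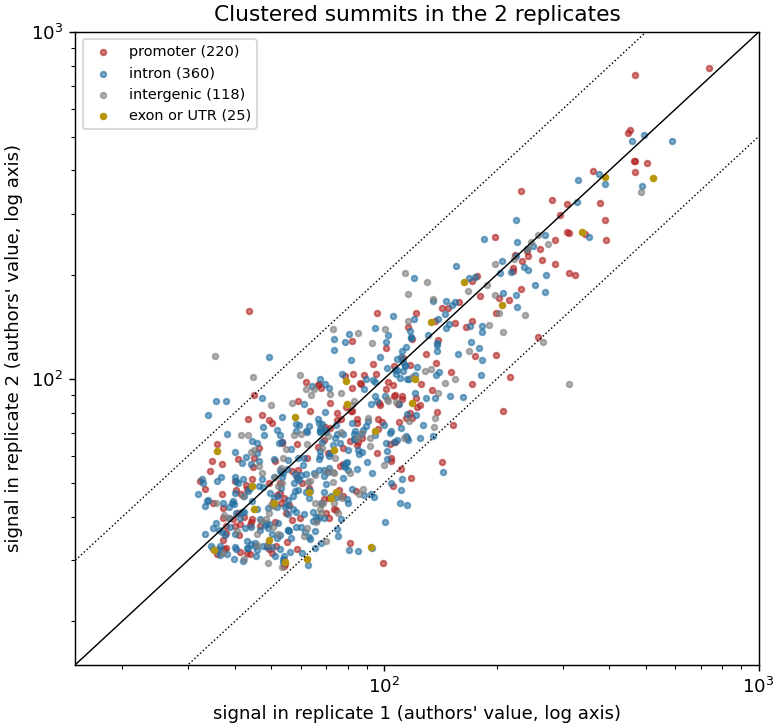
Signal in replicate 1 against signal in replicate 2 (authors' values from each replicate's own ranked list, log axes) for the 723 clustered summits matched in both, coloured by annotation class. The solid line marks equal values and the dotted lines a 2-fold difference, and the summit at dco, with 43.5 and 157, is the one farthest above.

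The share of summits in clusters varied between the arms. On X 28.0% of the merged peaks lay in clusters, on 3L 24.0%, on 2L 20.3%, on 2R 17.1% and on 3R 11.7%. These shares are a description of what the rule chose. Members enter in groups of 3 or more, so no interval that takes peaks as independent is given. Per length, X carried 2.21 clusters per Mb and 3R 0.935. Merged peaks themselves numbered 31.3 per Mb on X and 25.2 on 3R. The part of this density, and of the copy number of X in embryos of unrecorded sex, in the difference between arms was not tested. Chromosome 4 held 1 merged peak and Y none, so neither had a cluster. The median signal of the members was similar on all 5 arms, from 117 on 3R to 143 on 2R, and the 2 largest clusters were both on X.

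**Figure D5:**
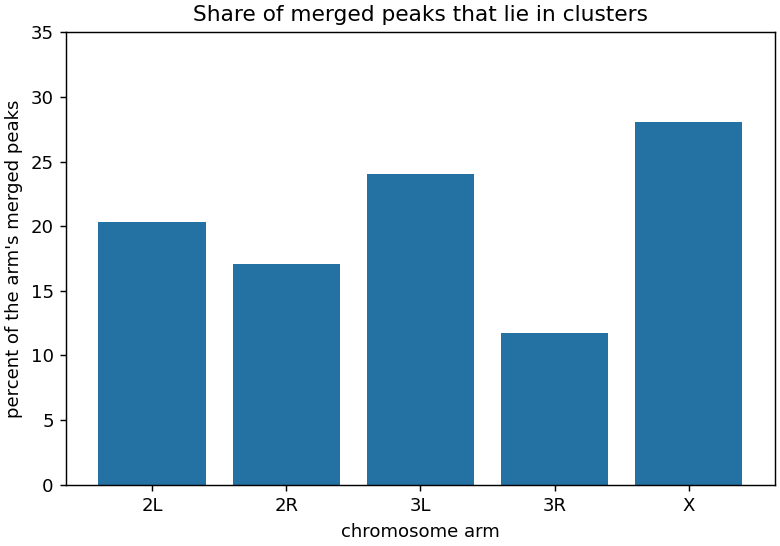
Percent of the merged peaks of each chromosome arm that lie in clusters (bars, linear axis from 0). X is highest at 28.0% and 3R lowest at 11.7%, and no error is drawn because members enter in groups.

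Genes of the tramtrack family and of signalling pathways were among those with clusters. A clustered summit lay in the gene or within 2 kb of it for 389 of 13968 protein-coding genes (2.78%). These 389 genes had a median length of 4783 bp, against 2164.5 bp for all genes. The 3553 genes with a summit but no clustered one had a median of 3353 bp. The lists below were described by their counts alone, and their genes differ in length. All 16 genes of BTB-domain transcription factors had some summit, as did 28.2% of all protein-coding genes, and 4 of the 16 (25%) had clustered ones, namely Trl, chinmo, ken and lola. The 16 genes had a median length of 31702 bp, against the 2164.5 bp of all genes. At Trl, which encodes the GAGA factor, 4 summits had signals of 188, 244, 844 and 98.6, and the strongest, in an intron at 3L:14759491, had 489 in replicate 1 and 361 in replicate 2. Chinmo, a regulator of temporal identity in neurons, had 4 summits, from 74.5 to 189. The ttk gene itself had none. Its 6 merged summits lay 5431, 2755, 5440, 2292 and 8540 bp apart, so 2 of these distances were just over the 5 kb of the rule. The strongest of the 6, at an internal promoter (3R:31725666), had a signal of 197.

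Among 24 genes of the EGF receptor and Ras pathway, whose members relay growth factor signals, 5 had clustered summits (20.8%, against 2.78% of all genes). These were Raf, aos (argos, a secreted inhibitor of the receptor), RasGAP1 (a Ras inactivator), edl (which modulates ETS factors) and S (Star, needed for ligand export). At aos an intron summit had 539 (269 in replicate 1 and 261 in replicate 2), and the summed signals at RasGAP1 and edl were 835 and 834. Of 20 ecdysone response genes, which act in the hormone cascade, 3 had clustered summits (15%), all nuclear receptors. Hr3 had 950 in an intron (459 and 484), Hr4 had 7 summits led by 497 (250 and 241), and ftz-f1 had 3 of up to 142. Of 20 tracheal and epithelial genes, 3 had them (15%), namely baz, crb and par-6, which encode polarity proteins. At baz a 5' UTR summit had 889 (523 and 380). Some summit lay at 70.8% of the EGF receptor and Ras list, 75% of the ecdysone list and 55% of the tracheal and epithelial list. The share of all genes was 28.2%. The median gene lengths of these lists were, in the same order, 20870, 36624.5 and 11421 bp, against 2164.5 bp for all genes. The part of gene length in the clustered shares was not tested.

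The other lists were counted in the same way. Cytoplasmic ribosomal protein genes had some summit in 60 of 86 cases (69.8%, against 28.2% of all protein-coding genes) and a clustered one in 6 (6.98%, against 2.78%). Among genes with some summit, a clustered one was thus at 6 of 60 in this list and at 389 of 3942 over all protein-coding genes, which are like shares. The ribosomal protein genes are short, with a median of 1344.5 bp. Summed signals of the clustered summits were 578 at RpL34b, 334 at RpL8 and 252 at RpS23. The Notch pathway had 1 of 24 (4.17%), E(spl)m3-HLH, a repressor gene that Notch signalling activates, with a summed signal of 265. The list of 25 Polycomb, trithorax and corepressor genes had 1 (4%), ph-p. Genes outside that list were not counted for it, among them Trl, which was counted with the BTB-domain genes. Both shares were near the 2.78% of all genes. None of 24 segmentation genes and none of 8 Hox genes had a clustered summit, and 7 and 3 of them had some summit, or 29.2% and 37.5% against 28.2% of all genes. At 2.78% of all genes, a count of 0 in lists of this size is no result about them. Odorant and gustatory receptor genes had 1 of 120, Or85f, which shares its 2 summits with the neighbouring RpL34b.

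In sequence, clustered summits resembled the rest in most motifs. Matches were counted on both strands within 100 bp of the summit. AGGAC, the core sequence known for binding by the 69 kDa tramtrack isoform, was present at 64 members (8.72%), against 9.39% outside and 9.25% of all merged peaks. Its longer form GGTCCT was present at 1.09% (1.45% outside, 1.38% of all). The sites reported for the 88 kDa isoform were as rare, at 1.36% for AGGGCGG (0.656% outside, 0.798% of all) and 1.77% for AGGGTGG (2.31% outside, 2.20% of all). GAGAG was present at 194 members (26.4%), against 23.1% outside and 23.8% of all. It was at 2 or more summits in 47 clusters, and the A tract, at 25.5% of members, in 45. The count that such shares alone would give was not worked out. The longer form GAGAGAG, which contains GAGAG, was at 4.77% (3.93% outside, 4.10% of all). The motif shares depended on the window. Within 50 bp and within 200 bp of the summit, GAGAG was at 8.58% and 50.3% of members, and AGGAC at 4.63% and 16.5%. Shares outside clusters are not given for these 2 windows.

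The core CGATA of BEAF-32, an insulator protein, differed from the share outside by more percentage points than any other motif searched. It was present at 144 members (19.6%), against 27.4% outside and 25.9% of all merged peaks. Among promoter summits the shares were 22.2% of members and 34.6% outside, and among the other summits 18.5% and 21.0%. TATCGATA, the DNA replication-related element, contains CGATA and was present at 1.50% of members, 2.76% outside and 2.51% of all. CAGGTA, the core bound by the early activator Zelda, was at 4.77% (3.59% outside, 3.83% of all). GGTCACAC, the Motif 1 core bound by M1BP, was at 1.63% (1.73% outside, 1.71% of all). The E-box CACGTG was at 1.50% (2.04% outside, 1.93% of all), and the other form of E-box, CAGCTG, at 8.04% (8.32% outside, 8.26% of all). The repeat CACACACA was at 3.68% (2.93% outside, 3.08% of all), and the A tract at 25.5% (25.1% outside, 25.2% of all). Of the motif counts none was tested, since peaks of 1 list are not replicates. The GC content of the windows had a median of 34.8% in members and 35.3% outside.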

How the data were processed

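Binding of GFP-tagged tramtrack was measured by ChIP-seq in 2 libraries of 1 group, grouped by the replicate numbers in the labels. The deposited files are peak lists on dm6, per the labels. The signal of a peak is a value of the authors, of unknown normalization. Signals were compared within a list, except between the replicates, whose values and ratios come from 2 separate lists. The scales of these 2 lists may differ, so the ratios between replicates are a description only. The score is the authors' IDR score (from the irreproducible discovery rate), at least 830 in the conservative list. Aligner, peak caller and their versions were likewise not given in the sources used here.

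Peaks were merged and chained, and each summit took the first class that applied of promoter, then 5' UTR, then coding exon, then 3' UTR, then other exon, then intron, and otherwise intergenic. Genes came from Ensembl release 115 without transposable elements. Replicate values come from each replicate's list, from the nearest summit if within 150 bp. The text names the 12 clusters with most summits, the 12 with the highest summed signal, the 5 with the closest spacing, and up to 4 genes of each of 10 lists, and S, CG1677, ush, shep, dco, COX7AL2 and CG31668 were added after seeing the values. Of 164 listed symbols, 157 matched exactly, 4 through synonyms and 3 not at all. Some clusters, genes and sequences that this rule names are not reported here. Members, lists and motifs were chosen with earlier results of these data known. No tests were run, since 2 libraries in 1 group allow none. Alternatives were other peak lists, distances, windows and matching limits. Tried on simulated positions with planted clusters, the clustering found as many members as were planted. Software was matplotlib 3.10.9, scipy 1.17.1, pandas 2.3.3 and numpy 2.4.6 under Python 3.11.15. Coordinates are 1-based.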

Additional observations from a re-analysis of the deposited data

How the results depend on the processing

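The number of clustered summits depended mostly on the distance and the peak list. The share of merged peaks in clusters was 20.2%, and it was 24.0% with the authors' larger list, 10.4% with peaks of at least the median signal, 11.3% with summits at most 3 kb apart, 32.2% at 10 kb, 14.6% with 3 summits within 5 kb, 23.4% without merging, 17.8% with peaks merged within 300 bp and 16.9 to 18.8% with the list of 1 replicate alone. The members numbered 197 at the median signal or above, 410 at 3 kb and 1171 at 10 kb, and the clusters 58 and 119 in the first and second of these. The promoter share of 30.7% was 34.5% at the median signal or above, 25.4% at 3 kb, 21.3% with promoters of 250 bp and 43.2% with 1000 bp. The intron share of 49.7% was 41.6% at the median signal or above, 55.0% with promoters of 250 bp and 40.9% with 1000 bp. These are shares of members alone, so the contrast with summits outside clusters was not checked under these settings. Members in both replicates' thresholded lists made up 53.3% with summits matched within 50 bp. The same matching left 70 clusters with the same strongest summit, against 149 within 150 bp. Restoring 83 ranked peaks that had passed the score, an alternative chosen after seeing the data, gave 790 members in 215 clusters. Of 101 alternative values 46 stayed within the tolerance set for them and 55 moved. No paired analysis was possible because both libraries are of 1 group. The causes were not tested. Read depth is unknown and no control library was used here, so neither could be weighed.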

Other observations

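The authors' larger list added few summits inside the clusters. Of 1086 merged summits found in that list alone, 33 (3.04%) fell within the span of a cluster, in 28 of the 201 clusters, and the spans covered 0.834% of the length of the arms. Applied to the larger list itself, the rule gave 1070 members in 279 clusters. The strongest summit lay in an intron in 97 of the 201 clusters, at a promoter in 68 and between genes in 33. The strongest share in 1 summit, 81.7%, was in the cluster at COX7AL2 and CG31668 on 2L, where the leading summit had a signal of 839.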
